A study of Homo sapiens with 6 samples.

Results

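The enzymes that build purine and pyrimidine nucleotides from small precursors were examined in total RNA sequencing data of a human neuroblastoma cell line. The group was chosen by name as 10 genes of the 60651 in each table. It holds 4 genes of pyrimidine synthesis (*CAD*, *DHODH*, *UMPS* and *CTPS1*) and 6 of purine synthesis (*PPAT*, *GART*, *PAICS*, *ATIC*, *IMPDH1* and *IMPDH2*). All 10 passed the filter on low counts.

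The series holds 6 libraries. In 3 of them the title names EtOH, the ethanol vehicle, and in the other 3 it names Tet, tetracycline, which was given for 5 days per the labels. What the cells were is not settled by the sources. The titles name IMR575, a *MYCN*-amplified line also written IMR-5/75, and 1 tag speaks of a knockdown. The protocol text instead describes single clones of SK-N-SH with a tetracycline-inducible *MYCN* expression system, and the study's methods describe an SK-N-AS expression model and IMR-5/75 cells with an inducible *MYCN* shRNA. Depending on the model, tetracycline would therefore raise or lower *MYCN*. Control and treated cells alike would carry the inducible construct. Groups were taken from the titles alone, and the libraries are called by their labels.

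*MYCN* is the gene the system targets. It was measured at 157.9, 256.3 and 155.9 CPM (counts scaled by library size and composition) in EtOH replicates 1 to 3 and at 196.6, 200.1 and 145.4 CPM in Tet replicates 1 to 3. The groups overlapped, and the log2 fold change (Tet against EtOH) was -0.07 ± 0.23 (SE, n = 3 libraries per group; edgeR quasi-likelihood test, adjusted p = 0.956). Its level thus does not tell which way the system was switched in the libraries labelled Tet, and a transgene lacking the counted exons would not be seen in this value. The paper reports the change of MYCN protein by western blot for both of its tetracycline models, without naming these libraries.

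Libraries held between 27933378 and 40498065 counts, so that 3 counts corresponded to 0.0741 to 0.107 CPM. EtOH replicate 2 stood apart on the first principal component (44.7% of the variance), at 84.2 against -55 and -37 for the other EtOH libraries, with Tet replicate 2 next at 47.3. The second component (25.7%) separated the groups. Of the noradrenergic neuroblastoma markers, 8 of 11 passed the filter, while *TH*, *DBH* and *STMN2* reached at most 0.414 TPM (counts per exon length, scaled to the same sum in each library) in any library. The summed level of 5 Schwann cell markers was 1.16 to 3.72 TPM and that of 5 blood and vessel markers 0.206 to 0.703 TPM. Mesenchymal markers summed to 183.3 to 336.5 TPM, with *VIM* at 78.2 to 151.5 TPM and *COL1A2* at 0 in all 6 libraries.

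Dividing cells need nucleotides for RNA and DNA. Pyrimidine synthesis builds the ring from glutamine, bicarbonate and aspartate before the sugar phosphate is attached, and gives UMP, from which UTP and CTP are made. Purine synthesis builds the ring step by step on phosphoribosyl pyrophosphate (PRPP) and gives IMP, from which AMP and GMP are made. In neuroblastoma and other tumours several of these enzymes are known as targets of the MYC family of transcription factors, which bind the hexamer CACGTG (the canonical E-box), and some are targets of drugs.

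The promoter letters are shown because of that background. In the RefSeq sequences of build GRCh38.p14, windows from 250 bases before to 50 bases after an annotated start were searched for the exact hexamer CACGTG, which reads the same on both strands. It lay in 2548 of 35116 windows (7.26%). Windows were given for 9 of the 10 enzymes (14 windows), *IMPDH2* being the exception. Of the 14 windows, 4 (28.6%) held the hexamer, 1 each of *ATIC*, *PPAT*, *PAICS* and *DHODH*. Those of *PPAT* and *PAICS* overlap. Each match is printed 5′ to 3′ on the strand of the gene with the hexamer in capitals. Distances are from the RefSeq start, which can differ from that of the gene as annotated for counting. For *ATIC* these were chr2:215312059 and 215311956, and for *DHODH* chr16:72008744 and 72008588.
*ATIC*, chr2:215312001-215312030, 46 bases before the start: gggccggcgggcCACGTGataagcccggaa
*ATIC*, chr2:215312076-215312105, 29 bases after the start: ctcctacctgcgCACGTGgtgccgccgctg
*PPAT*, chr4:56435780-56435809, minus strand, 182 bases before the start: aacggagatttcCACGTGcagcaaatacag
*DHODH*, chr16:72008573-72008602, 159 bases before the start: gccgctactgcgCACGTGcacccaaccaga
The match of *PAICS*, 40 bases after its start, was the same stretch of the genome as that of *PPAT*. These matches are letters in a sequence and no measurement of binding was made.

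That site was shared because *PPAT* and *PAICS* are neighbours read in opposite directions. *PPAT* spans chr4:56393362-56435615 on the minus strand and *PAICS* spans chr4:56435741-56464578 on the plus strand. The 125 bases between both starts, as annotated for counting, are shown because they lie before both genes. Of these bases, 76% were G or C (chr4:56435616-56435740, plus strand). The shared hexamer is not among them, since its printed stretch begins at chr4:56435780, within *PAICS*.
*PPAT* to *PAICS*: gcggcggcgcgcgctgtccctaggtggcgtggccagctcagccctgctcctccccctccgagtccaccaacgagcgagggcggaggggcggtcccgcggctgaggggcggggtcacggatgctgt

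The levels of the 10 enzymes spanned a wide range when expressed per exon length. *PAICS* was the highest, with a mean of 183.9 TPM over 6 libraries (range 146.1 to 281.5), and ranked 359 among all genes. *PPAT* followed at 71 TPM (36.9 to 138.1), *ATIC* at 45.3 TPM (39.2 to 51.6), *CTPS1* at 39.2 TPM (31.5 to 49.2) and *GART* at 24.2 TPM (14.4 to 30.2). *UMPS* stood at 9.99 TPM (8.51 to 12.9). The 4 lowest were *CAD* at 2.34 TPM (1.80 to 3.01), *IMPDH2* at 1.86 TPM (0.863 to 3.995), *DHODH* at 0.942 TPM (0.743 to 1.26) and *IMPDH1* at 0.343 TPM (0.123 to 0.640). Neighbours in this order overlapped in their ranges for *PPAT* and *ATIC*, *ATIC* and *CTPS1*, *CAD* and *IMPDH2*, and *IMPDH2* and *DHODH*. *ATIC* was nevertheless above *CTPS1* in 6 of 6 libraries, and *PPAT* above *ATIC* in 5 of 6. The enzyme of the first pyrimidine steps, *CAD*, stood far below those of the later steps *UMPS* and *CTPS1* in all 6 libraries. The exons of *CAD* are also richer in GC (57.0% against 46.8% and 45.7%), and the part of GC content in this order was not tested.

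**Figure D1:**
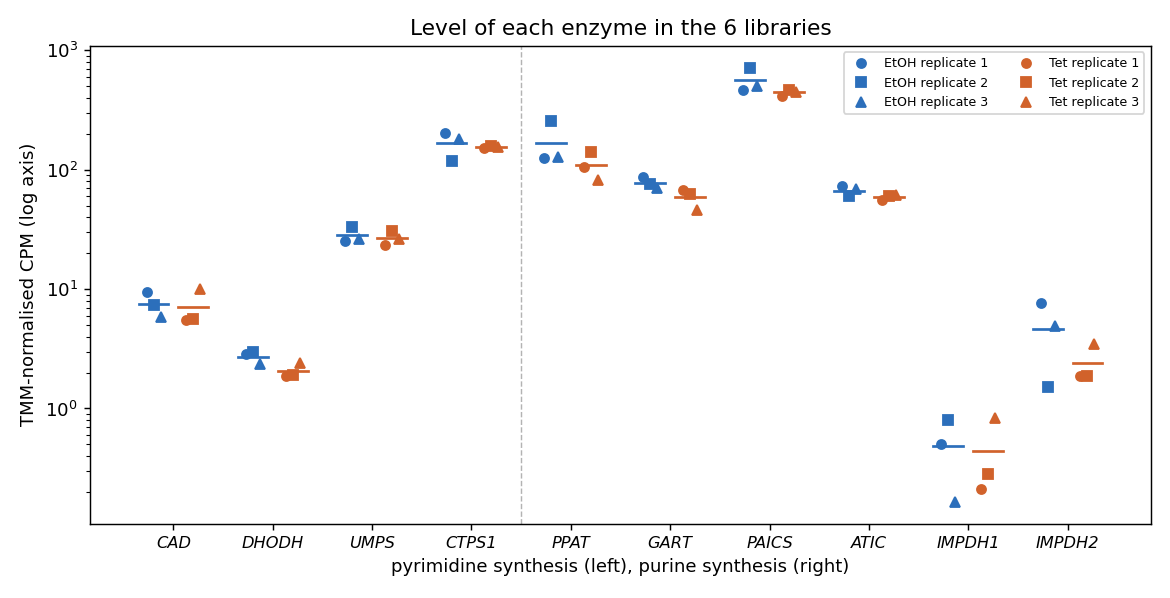
Level of each enzyme in every library, as TMM-normalised CPM on a log axis, with pyrimidine enzymes left and purine enzymes right of the dashed line. Points are single libraries (shape gives the replicate number, blue EtOH, orange Tet) and horizontal bars are group means. *GART* and *PAICS* are the only enzymes whose 3 Tet libraries all lie below the 3 EtOH libraries.

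None of the 10 enzymes differed between the labels in edgeR's quasi-likelihood test at an adjusted p under 0.05, where 0.236% of 22443 genes tested did. None had an unadjusted p under 0.05 either, against 10.8% of all genes, and none was called by DESeq2 (2.7% of genes called). All 10 fitted differences were below 0 (lower with Tet), against 50.7% of all genes. Their median log2 fold change was -0.26, that of the 6 purine enzymes -0.38 and that of the 4 pyrimidine enzymes -0.11, beside a median of -0.01 and quartiles of -0.27 and 0.28 over all genes. In 2 of the 10, *GART* and *PAICS*, the groups did not overlap and Tet was lower, as in 8.28% of all genes. That count was 5 of 10 without EtOH replicate 2 (21.2% of all genes) and 4 of 10 without Tet replicate 3 (12.9%). With 1 library left out, 7 to 10 of the 10 differences were below 0, the fewest without Tet replicate 1. Without EtOH replicate 2, 8 of 10 were below 0, and 0 of 10 passed the threshold, where 2.89% of all genes did. The labels do not say that replicates came from separate cultures. The study's methods describe its in vitro experiments in general as independent biological replicates, without naming these libraries. The p-values measure the spread between these libraries. In such bulk RNA, fewer cells of a type and less RNA per cell cannot be told apart.

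The purine pathway opens with *PPAT*, the amidotransferase that commits PRPP to the ring. Its levels were 124.2, 254.2 and 127.3 CPM in EtOH replicates 1 to 3 and 105.5, 142.0 and 82.3 CPM in Tet replicates 1 to 3. EtOH replicate 2 was far above all others, and Tet replicate 2, the highest of its group, lay above the remaining EtOH libraries. The group means were 168.6 ± 74.2 and 109.9 ± 30.1 CPM (SD, n = 3), with a log2 fold change of -0.62 ± 0.31 (± SE; adjusted p = 0.542, edgeR). Without EtOH replicate 2 the log2 fold change was -0.19 ± 0.21 (edgeR adjusted p = 0.658).

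*GART* carries several early steps of the ring on a single protein. It was measured at 86.9, 75.8 and 70.6 CPM in EtOH replicates and at 67.5, 62.7 and 45.8 CPM in Tet replicates, all of the latter below the former. Tet minus EtOH was -0.41 ± 0.18 on the log2 scale (SE, n = 3 per group; edgeR unadjusted p = 0.0564, adjusted p = 0.482). Tet replicate 3 gave the lowest value, and without it the log2 fold change was -0.25 ± 0.17. Of the 10 enzymes, *GART* had the smallest unadjusted p.

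*PAICS*, which performs a carboxylation and the following ligation in the middle of the pathway, was measured at 469.6, 716.0 and 506.4 CPM in EtOH replicates and at 415.3, 465.1 and 450.3 CPM in Tet replicates. The groups lay apart by little, since EtOH replicate 1 was just above Tet replicate 2. On the log2 scale the difference was -0.35 ± 0.19 (± SE; adjusted p = 0.569, edgeR), and it was -0.13 ± 0.13 without EtOH replicate 2. Counts of *PAICS* may also miss reads that align to its processed copies: 7 genes are named as its pseudogenes, and together they held 3.61 to 5.81 CPM.

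*PPAT* and *PAICS* were both highest in EtOH replicate 2. The log2 ratio of *PPAT* to *PAICS* per exon length was -1.45, -1.03 and -1.53 in EtOH replicates and -1.51, -1.25 and -1.98 in Tet replicates. The ratio was highest in both libraries numbered 2, and the groups overlapped (means -1.34 ± 0.27 and -1.58 ± 0.37, SD, n = 3; exact two-sided permutation test, p = 0.5, where 0.1 is the smallest p that 3 against 3 libraries allow).

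*ATIC* closes the ring and gives IMP. It was measured at 72.4, 60.1 and 68.3 CPM in EtOH replicates and at 55.7, 60.8 and 61.0 CPM in Tet replicates. The groups overlapped through EtOH replicate 2, which was the lowest of its group here, in contrast to *PPAT* and *PAICS*. This gave a log2 fold change of -0.18 ± 0.14 (± SE; adjusted p = 0.740, edgeR).

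*IMPDH1* and *IMPDH2* encode isozymes of IMP dehydrogenase, the step that turns IMP towards guanine nucleotides. *IMPDH2*, the form that is usually raised in proliferating cells, was measured at 7.59, 1.51 and 4.89 CPM in EtOH replicates and at 1.88, 1.86 and 3.45 CPM in Tet replicates. EtOH replicate 2 was the lowest of all 6 libraries, and EtOH replicates 1 and 3 were the highest. The log2 fold change, -0.96 ± 0.54 (± SE; adjusted p = 0.584, edgeR), was the largest in size of the 10 and also had a wide error. It was -1.37 ± 0.34 without EtOH replicate 2 (edgeR adjusted p = 0.0652) and -0.43 ± 0.52 without EtOH replicate 1 (edgeR adjusted p = 0.909).

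The count of *IMPDH2* needs care for another reason. Its annotated exons merge into 1 block of 5123 bases that covers the gene from end to end (chr3:49024325-49029447, minus strand), so that intron reads were counted too and its TPM value is divided by more bases than the spliced messenger has. Of these bases, 2.58% also belong to a gene on the opposite strand. *IMPDH1* (chr7:128392277-128410252, minus strand) rested on few reads, with 18, 22 and 5 counts in EtOH replicates and 6, 10 and 33 counts in Tet replicates, 94 in all. The largest count was in Tet replicate 3 and the smallest in EtOH replicate 3. Its log2 fold change was -0.11 ± 0.71 (± SE; adjusted p = 0.981, edgeR). The 10 genes named as *IMPDH1* pseudogenes summed to at most 0.730 CPM.

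Per exon length, *IMPDH2* was above *IMPDH1* in all 6 libraries. The log2 ratio was 3.43, 0.43 and 4.403 in EtOH replicates and 2.66, 2.25 and 1.57 in Tet replicates. The lowest and highest values were both in EtOH libraries, and the Tet values lay between them. The means were 2.76 ± 2.07 and 2.16 ± 0.55 (SD, n = 3; exact two-sided permutation test, p = 0.7).

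Of the pyrimidine enzymes, *CAD* (chr2:27217369-27243943) performs the opening steps on a single large protein. It was measured at 9.43, 7.32 and 5.82 CPM in EtOH replicates and at 5.53, 5.58 and 10.1 CPM in Tet replicates. Tet replicate 3 was the highest of all 6 libraries, while the other Tet libraries were the lowest. Tet minus EtOH was -0.09 ± 0.31 on the log2 scale (± SE; adjusted p = 0.962, edgeR), and it was -0.43 ± 0.28 without Tet replicate 3 and 0.08 ± 0.34 without EtOH replicate 1.

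*DHODH*, the enzyme of the mitochondrial inner membrane that oxidises dihydroorotate to orotate, ranged from 2.35 to 2.96 CPM in EtOH libraries and from 1.88 to 2.42 CPM in Tet libraries. Only Tet replicate 3 reached into the range of the EtOH libraries. On the log2 scale the difference was -0.40 ± 0.28 (± SE; adjusted p = 0.692, edgeR).

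*UMPS* converts orotate to UMP. Its levels were 25.3, 32.9 and 26.4 CPM in EtOH replicates and 23.3, 30.7 and 26.2 CPM in Tet replicates, with both libraries numbered 2 the highest of their groups. This gave a log2 fold change of -0.07 ± 0.18 (± SE; adjusted p = 0.940, edgeR), the smallest of the 10 in size.

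*CTPS1*, which makes CTP from UTP, was measured at 203.6, 119.0 and 182.3 CPM in EtOH replicates and at 151.5, 156.5 and 154.0 CPM in Tet replicates. The Tet libraries lay close together, between the lowest EtOH library (replicate 2) and the others. Tet minus EtOH was -0.13 ± 0.20 on the log2 scale (± SE; adjusted p = 0.891, edgeR), and it was -0.32 ± 0.12 without EtOH replicate 2 (edgeR adjusted p = 0.190).

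**Figure D2:**
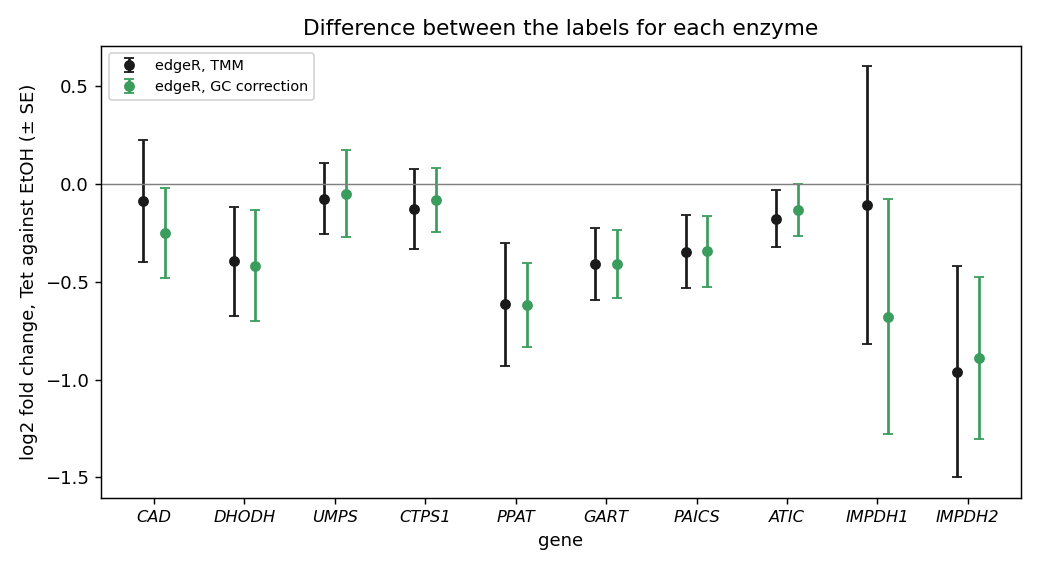
Log2 fold change of each enzyme, Tet against EtOH (y axis), from edgeR with TMM scaling (black) and after a correction for GC content (green), with bars of 1 SE either side. All points lie below 0, the lowest being *IMPDH2* at -0.96, and the correction shifts *IMPDH1* from -0.11 to -0.68 while *PPAT* stays at -0.62.

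The spread between libraries of the same label varied with the base composition of the enzymes. Exon GC content was 37.2% for *PPAT*, 42.9% for *GART*, 43.4% for *PAICS*, 45.7% for *CTPS1*, 46.8% for *UMPS* and 47.0% for *ATIC*, and rose to 53.0% for *DHODH*, 53.4% for *IMPDH2*, 57.0% for *CAD* and 62.8% for *IMPDH1*, beside a median of 44.7% over all genes tested. Tet replicate 3 was above the mean of the other Tet libraries by 1.54 (log2 CPM) for *IMPDH1*, 0.86 for *IMPDH2* and 0.85 for *CAD*, and below it by a difference of -0.57 for *PPAT*. Across the 10 enzymes, exon GC content and this deviation had a Spearman coefficient of 0.94 in Tet replicate 3, against -0.87 in Tet replicate 1 and -0.89 in Tet replicate 2. The values of a group are linked, because each deviation is taken from the other libraries of the label. In the EtOH libraries the coefficients were 0.64, -0.07 and -0.20. Over all genes, the average curve of Tet replicate 3 likewise rose with GC content, from -0.14 at 35% to 0.79 at 60% (log2 CPM against the average library). That of EtOH replicate 2 fell from 0.30 to -0.35 over the same range, beside the coefficient of -0.07 across the 10 enzymes in this library.

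**Figure D3:**
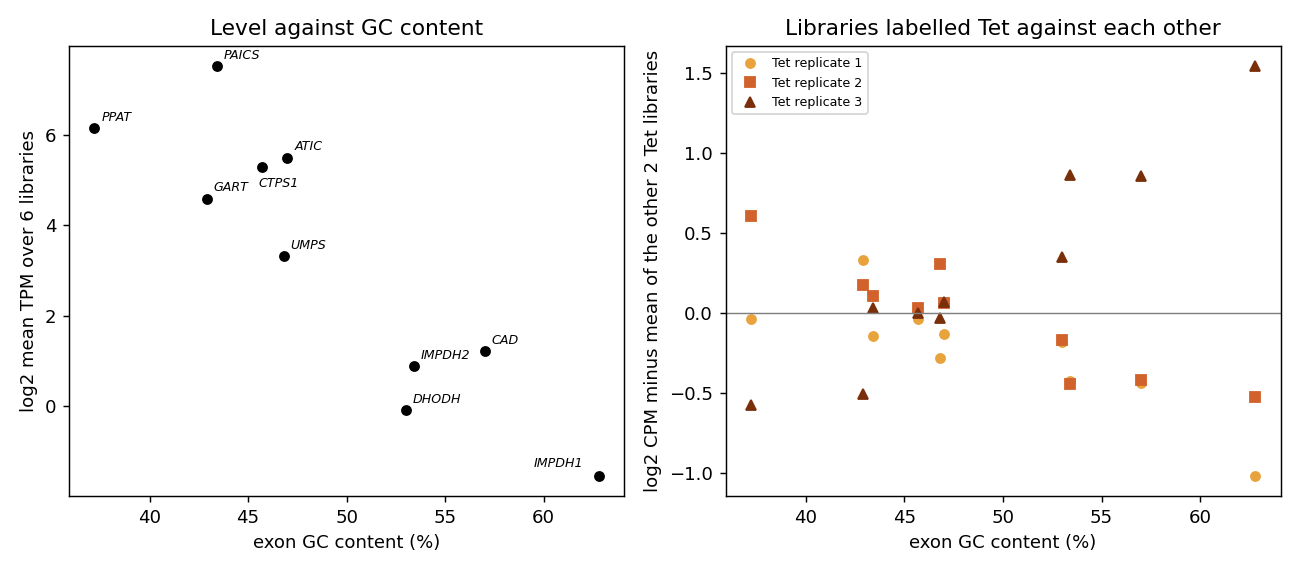
Left, log2 of the mean TPM over 6 libraries against exon GC content (%) for each enzyme, with the 4 enzymes above 50% GC at the bottom. Right, log2 CPM of each Tet library minus the mean of the other Tet libraries, against exon GC content (%), where Tet replicate 3 lies at 1.54 for *IMPDH1*, the enzyme richest in GC, and at -0.57 for *PPAT*, the poorest.

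Levels went with GC content as well. The 4 enzymes with the lowest TPM were the 4 with the highest exon GC content, and the Spearman coefficient of GC content with mean TPM was -0.81 across the 10 enzymes, beside -0.48 across 22443 genes. These are descriptions across genes that share the same libraries, and the part of GC content in the levels was not tested. After a correction of each library for GC content, chosen after seeing the data, 0 of 10 enzymes passed the threshold, where 0.539% of all genes did, and the smallest adjusted p was that of *PPAT* (log2 fold change -0.62 ± 0.21, edgeR adjusted p = 0.276). In that fit *CAD* stood at -0.25 ± 0.23 and *IMPDH1* at -0.68 ± 0.60.

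Around the 10 enzymes, 73 further genes of nucleotide metabolism were examined in 7 lists, of which 60 passed the filter. None of them passed the adjusted threshold in edgeR. At an unadjusted p under 0.05, 6 were lower with Tet (4.94% of all genes) and 2 were higher (5.83% of all genes). Groups did not overlap in 7 genes lower with Tet (8.28% of all genes) and in 2 higher (9.2% of all genes). The median log2 fold change of the 60 genes was -0.11, and 38 lay below 0. DESeq2 called 2 of the 60, *PNP* and *NT5E* (2.7% of all genes called). Without EtOH replicate 2, edgeR called the same pair (2.89% of all genes called). For each list the text names the genes with the smallest unadjusted p.

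The remaining steps of purine synthesis include the PRPP synthetases, which supply the substrate of *PPAT*. *PRPS2* was measured at 25.5, 58.3 and 27.6 CPM in EtOH replicates and at 18.9, 20.5 and 13.8 CPM in Tet replicates. EtOH replicate 2 was again the highest, as for *PPAT*, and all Tet libraries were below all EtOH libraries. On the log2 scale the difference was -1.07 ± 0.33 (± SE; adjusted p = 0.275, edgeR), and it was -0.58 ± 0.20 without EtOH replicate 2. *PRPS1* ranged from 20.9 to 24.6 CPM in EtOH libraries and from 15.2 to 17.6 CPM in Tet libraries (log2 fold change -0.46 ± 0.17, edgeR adjusted p = 0.365). Over the 9 genes of this list the median was -0.09, with 7 below 0. 

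The 5 remaining pyrimidine genes had a median of 0.10, with 2 below 0. Those were the nucleoside diphosphate kinases *NME2* (-0.38 ± 0.31, edgeR adjusted p = 0.748) and *NME1* (-0.31 ± 0.28, adjusted p = 0.783), whose exons partly belong to a read-through gene as well. In deoxynucleotide synthesis the median of 9 genes was -0.16. There *RRM1*, the large subunit of ribonucleotide reductase, was measured at 127.3 to 144.9 CPM in EtOH and 91.2 to 122.4 CPM in Tet libraries without overlap (log2 fold change -0.37 ± 0.16, edgeR adjusted p = 0.442). *TXN*, the thioredoxin that can reduce that enzyme, had a log2 fold change of -0.30 ± 0.18.

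Salvage reuses bases and nucleosides in place of new synthesis. *PNP*, purine nucleoside phosphorylase, was measured at 7.03, 6.60 and 5.69 CPM in EtOH replicates and at 2.84, 2.43 and 3.07 CPM in Tet replicates. The groups were well apart, and EtOH replicate 2 lay within its group. Its log2 fold change of -1.21 ± 0.24 came closest to the threshold of all genes in the 7 lists (edgeR adjusted p = 0.0966; DESeq2 adjusted p = 0.000145). Of its exon bases, 11.9% also belong to a gene on the opposite strand, whose reads cannot be told apart here. The median over the 12 salvage genes tested was -0.20. *UCKL1*, a uridine-cytidine kinase-like gene, had a log2 fold change of 1.66 ± 0.73, with 2.72 CPM in Tet replicate 3 and at most 0.586 CPM in the others, and an exon GC content of 62.1%. Without Tet replicate 3 its log2 fold change was 0.45 ± 0.56.

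Of 12 tested genes of nucleotide breakdown and interconversion, 4 lay below 0, and the median was 0.07. *NT5E*, the cell surface nucleotidase that turns AMP into adenosine, was measured at 4.35, 5.77 and 4.56 CPM in EtOH replicates and at 8.26, 9.17 and 9.44 CPM in Tet replicates, with no overlap. This gave a log2 fold change of 0.87 ± 0.22 (edgeR adjusted p = 0.183; DESeq2 adjusted p = 0.0179). *NT5C2*, a cytosolic nucleotidase acting on IMP and GMP, ranged from 76.8 to 85.2 CPM in EtOH and from 93.0 to 104.9 CPM in Tet libraries (log2 fold change 0.31 ± 0.14, edgeR adjusted p = 0.478). Of its exon bases, 34.8% are shared with genes on the opposite strand.

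Of the nucleoside transporters, 4 of 6 were tested and all 4 lay below 0 (median -0.31), among them *SLC29A3* (-0.36 ± 0.41) and *SLC29A2* (-0.27 ± 0.50), both under 2 CPM in every library. Cofactor supply had a median of -0.22 over 9 genes. In that list *GLUL*, glutamine synthetase, was measured at 100.4 to 111.4 CPM in EtOH and 73.7 to 86.5 CPM in Tet libraries (log2 fold change -0.40 ± 0.14, edgeR adjusted p = 0.338). *MTHFD1*, which makes the formyl carrier used by *GART* and *ATIC*, was measured at 65.4 to 76.8 and 53.0 to 59.5 CPM (log2 fold change -0.33 ± 0.14, edgeR adjusted p = 0.456). Neither gene overlapped between the groups.

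**Figure D4:**
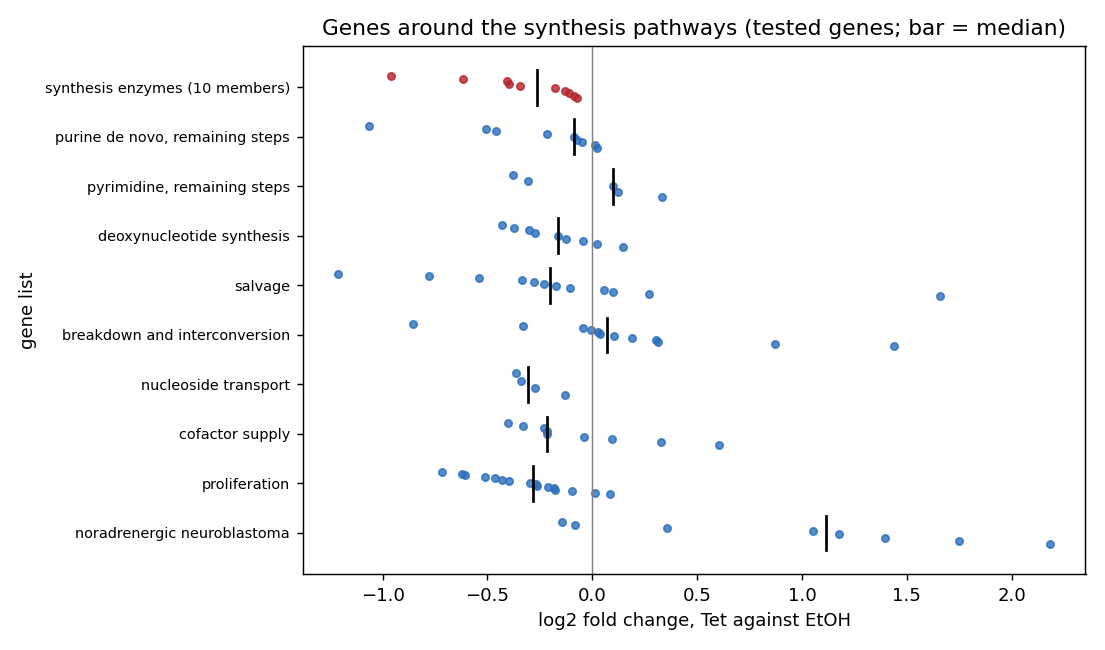
Log2 fold change, Tet against EtOH (x axis), of every tested gene in each list (y axis), with the 10 synthesis enzymes in red, other genes in blue and a black bar at the median of each list. The bars lie at -0.26 for the synthesis enzymes, -0.28 for proliferation genes and 1.11 for noradrenergic neuroblastoma markers.

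Fitted differences of cell division markers were mostly below 0 too. Of 16 proliferation genes, 14 lay below 0, with a median of -0.28. *MCM3*, part of the replicative helicase, had a log2 fold change of -0.72 ± 0.18 (edgeR adjusted p = 0.170; DESeq2 adjusted p = 0.0169). *CCNB1*, a mitotic cyclin, had one of -0.62 ± 0.27 (edgeR adjusted p = 0.462; DESeq2 adjusted p = 0.414), and of -0.34 ± 0.22 without EtOH replicate 2. The summed level of this list was 1123, 2014 and 1168 TPM in EtOH replicates and 1070, 1350 and 970.7 TPM in Tet replicates. The summed level of the 10 enzymes had the same highest and lowest library, with 378.6, 545.0 and 380.2 TPM in EtOH replicates and 327.3, 358.2 and 284.7 TPM in Tet replicates. *PAICS* (281.5 TPM) and *PPAT* (138.1 TPM) made up most of that sum in EtOH replicate 2. With each enzyme weighted equally, the mean centred log2 CPM was highest in EtOH replicate 1 (0.299) and lowest in Tet replicate 1 (-0.307). The 4 pyrimidine enzymes alone summed to 62.4 TPM in EtOH replicate 1 and 48.2 TPM in EtOH replicate 2. The order of the sums was not particular to these lists. The 7 wider nucleotide lists together (2681 TPM in EtOH replicate 2, 1433 TPM in Tet replicate 3) and *MYCN* (289.5 and 135.5 TPM) shared it. It did not hold for every list, and the noradrenergic sum was lowest in EtOH replicate 2 (536.9 TPM). The part of cell division in the levels of the enzymes was not tested. Noradrenergic markers differed in direction. Of the 8 tested, 6 had Tet libraries above all EtOH libraries, with *ISL1* at 1.18 ± 0.27 (edgeR adjusted p = 0.142; DESeq2 adjusted p = 0.0151) and *GATA2* at 1.75 ± 0.45 (edgeR adjusted p = 0.193; DESeq2 adjusted p = 0.0405), and their part in the result was not tested either.

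The genes whose pattern over the 6 libraries was most like that of the enzymes were *ZNF114* (Pearson r = 0.965), *KIF22* (r = 0.961) and *FBLN1* (r = 0.959). The likeness was taken as the correlation with the mean profile of the 10 enzymes, each centred over the libraries, among 10014 genes with a mean of at least 5 CPM. With 6 libraries and so many candidates, these are the top of a long list, and *ZNF114* for instance ranged only from 5.81 to 8.26 CPM.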

How the data were processed

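Total RNA depleted of ribosomal RNA was sequenced in 6 libraries. Each library came with its own table of gene values, which the authors deposited as estimated counts without scaling. According to the file headers, featureCounts 1.6.4 was run on exons without strand, used uniquely aligned reads and gave overlapping genes equal parts of a read. The labels name STAR 2.7.1a, featureCounts 1.5.1 and GRCh38, and the study's methods give options that use strand and admit multiple alignments. Between 12.3% and 14.7% of values were not whole.

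Estimated counts were rounded, since the design had assumed whole counts, filtered with filterByExpr, scaled by TMM and tested with edgeR 4.0.16 (quasi-likelihood F test, R 4.3.3), with Benjamini-Hochberg adjustment over all 22443 genes tested and a threshold of 0.05. CPM uses TMM library sizes, and TPM uses merged exon lengths. SE is the log2 fold change divided by the square root of F. Spike-ins were at 0 and were not used. Symbols matched 99.7% of identifiers.

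Alternatives were RLE and upper quartile scaling, no filter, at least 10 counts in every library, DESeq2 1.42.0, limma-voom (limma 3.58.1), the replicate number as a block, each library left out, and both libraries numbered 2 left out. A lowess correction for exon GC content (span 0.3), alone and with the block, was added after seeing the data. The edgeR step was tested on simulated data. Members, lists and tests were chosen with earlier results of these data known. Besides the members and *MYCN*, the genes named were those past the threshold in each list or, with none, up to 2 with the smallest unadjusted p, and 3 genes most like the members. *TH*, *DBH*, *STMN2*, *VIM* and *COL1A2* were named after their values were seen. Some genes are not reported here.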

Additional observations from a re-analysis of the deposited data

How the results depend on the processing

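The number of genes differing between the labels was 53 and depended on the setting. It was 302 with no filter, 606 with DESeq2, 874 with both libraries numbered 2 left out, 121 with GC correction, and 0 to 692 when 1 library was left out. The highest of these was without EtOH replicate 2, and without Tet replicate 1 or 3 it was 0 (1865 and 2067 genes at an unadjusted p under 0.05). Of the 60 further nucleotide genes, 2 passed with DESeq2 (2.7% of all genes) and 2 with both libraries numbered 2 left out (3.77%). When 1 library was left out 0 to 2 passed, with 2 without EtOH replicate 2 (2.89% of all genes). RLE or upper quartile scaling, limma-voom and at least 10 counts in every library kept the number of genes within 1.5 times. The 10 enzymes gave 0 calls in each of these settings. Of 159 values of single enzymes under the alternatives, 11 had another sign.

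Same-numbered libraries correlated at 0.060, 0.51 and 0.22 in their deviations from the group means. Libraries of different numbers correlated at -0.45 to 0.38, so the pair numbered 2 had the highest value of all. Whether libraries of the same number share a batch or a culture was not tested, and the main fit does not use the number. The replicate block raised the count of genes to 675 (3.01% of those tested), with 0 enzymes and 2 further nucleotide genes, *PNP* and *PRPS2*. The replicate block with GC correction gave 1043 genes (4.65%), 4 further nucleotide genes and 1 enzyme, *PPAT* (log2 fold change -0.60, edgeR adjusted p = 0.0128, against 0.0619 to 0.793 in the other alternatives).

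The median log2 fold change of the enzymes was -0.47 to -0.22 when 1 library was left out, the former without EtOH replicate 3. Leave-one-out values changed sign for *CAD* (-0.43 to 0.082), *UMPS* (-0.18 to 0.056), *CTPS1* (-0.32 to 0.014), *IMPDH1* (-0.95 to 0.41), *MYCN* (-0.22 to 0.21), *NME1* (-0.53 to 0.009) and the difference in the *IMPDH2* to *IMPDH1* ratio (-1.76 to 0.23). With both libraries numbered 2 left out, *CAD* stood at 0.043, *IMPDH1* at 0.66 and *MYCN* at 0.13. The cause was not tested. *IMPDH1* rested on 5 to 33 counts per library, and with at least 10 counts in every library it was not among the genes tested. Among the context genes, *MCM3* passed the threshold in 5 of 16 alternatives, *ISL1* in 6, *CCNB1* in 2 (both with the replicate block) and *GATA2* in 1.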
